A study of Mus musculus with 2 samples.

Results

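Secondary-granule neutrophils are here marrow cells rich in transcripts of secondary granule genes. They were 749 of 20654 barcodes in 2 single-cell libraries, 443 in the pulse library and 306 in the chase library. They were not all of 1 stage, as cells with cell-cycle transcripts and cells with late-stage genes were both among them. They were chosen by measured values. A barcode had to hold at least 500 genes and 1000 UMIs (unique molecular identifiers, each counting 1 captured RNA molecule once) with under 10% mitochondrial UMIs. Its summed Ngp, Camp and Ltf UMIs had to reach 50 per 10000, its summed Elane, Mpo, Prtn3 and Ctsg UMIs had to stay under 20 per 10000, and Cxcl12 and Bglap under 30 and 20 per 10000. Cells near the secondary granule limit were few. There, 7 pulse and 2 chase cells lay between 50 and 60 per 10000, and 3 and 1 cells that met every other limit lay between 40 and 50. For Cxcl12, 9 and 9 members held 20 to under 30 per 10000. Another 29 and 15 cells that met every other limit held 30 to under 60. For the primary granule sum, 8 and 9 members held 10 to under 20. The rule also left out cells rich in S100a8 and S100a9, alarmin genes abundant in the members. Their summed UMIs reached 1000 per 10000 in 720 pulse and 495 chase cells. Of these, 424 and 300 were members, while 105 and 55 were under the secondary granule limit. What the 105 and 55 cells were was not tested, and neutrophils low in Ngp, Camp and Ltf may be missing from the members.

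The study followed stromal cells of the endosteal marrow labelled through Adipoq, a gene of fat cells and of the Cxcl12-abundant reticular (CAR) stromal cells. Male Adipoq-CreERT2;Ai9 mice, in which tamoxifen lets an Adipoq-driven recombinase switch on the red reporter tdTomato, received tamoxifen by gavage for 3 days at 8 weeks of age and were harvested 24 hours later (pulse) or 4 weeks later (chase). Both groups carried both alleles and both received tamoxifen. Cells freed by digestion from the diaphysis and metaphysis of femur and tibia were sorted for bright reporter signal, a gate that kept 0.01% of cells at the pulse harvest and 0.29% at the chase harvest. The series used 4 mice, the labels do not say how many entered each library, and with 1 library per group no difference between pulse and chase could be tested. Harvest time, age at harvest, sort yield and library cannot be told apart in that comparison. Intervals below are exact 95% intervals and cover counting error only.

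Neutrophils mature in the marrow through stages marked by their granules. Promyelocytes make primary granules with Elane, Mpo, Prtn3 and Ctsg, proteases and a peroxidase. Myelocytes then make secondary granules with Ltf (lactoferrin, which binds iron), Camp (a cathelicidin) and Ngp under the factor Cebpe, and this is the last stage that divides. Later cells make gelatinase granules with Mmp9, take up the chemokine receptor Cxcr2 and leave for the blood. Neutrophils are not known to transcribe Adipoq.

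The 3 genes of the rule lie near one another on chromosome 9 (GENCODE vM21, mm10): Camp at chr9:109847379-109849617 on the minus strand, Ngp at chr9:110419747-110423012 and Ltf at chr9:111019271-111042767 on the plus strand. Fcnb, the secondary granule gene that differed most between the libraries, lies at chr2:28076378-28084885 on the minus strand. RefSeq windows of 250 bases before each gene's start (GRCm38.p6) were searched for the C/EBP-type motif TTGCNNAA and its reverse complement TTNNGCAA. A match was found in 9.56% of all 32851 windows. The stretches upstream of the annotated genes are shown because they belong to genes that mark these cells, with matches in capitals, 5′ to 3′ on the gene's strand.
Ngp, chr9:110419558-110419746: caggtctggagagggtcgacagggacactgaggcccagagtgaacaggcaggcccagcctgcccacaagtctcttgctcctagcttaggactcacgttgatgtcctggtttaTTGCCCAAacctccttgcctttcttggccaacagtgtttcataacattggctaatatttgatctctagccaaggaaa
Ltf, chr9:111019042-111019270: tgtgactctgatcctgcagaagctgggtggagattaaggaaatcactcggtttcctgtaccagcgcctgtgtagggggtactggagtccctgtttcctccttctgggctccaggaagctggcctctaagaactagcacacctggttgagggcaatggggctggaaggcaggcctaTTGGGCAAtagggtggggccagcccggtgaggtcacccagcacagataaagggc
Camp, chr9:109849618-109849706: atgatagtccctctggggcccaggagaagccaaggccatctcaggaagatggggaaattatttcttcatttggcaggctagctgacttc
Fcnb, chr2:28084886-28085128: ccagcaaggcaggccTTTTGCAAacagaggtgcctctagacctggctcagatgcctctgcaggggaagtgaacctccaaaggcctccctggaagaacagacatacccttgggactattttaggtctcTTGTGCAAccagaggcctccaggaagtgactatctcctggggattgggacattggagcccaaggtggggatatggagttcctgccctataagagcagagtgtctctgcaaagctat
These stretches hold 1 match for Ngp, 1 for Ltf, 2 for Fcnb and 0 for Camp. The full RefSeq window of Ngp held a match more, which lies inside the GENCODE gene and is not shown. A match is a description of letters and says nothing of binding.

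The libraries held 10608 and 10046 barcodes and 89009901 and 82939659 UMIs, and 9390 and 8445 barcodes passed the filters. The neutrophils made up 4.72% of filtered pulse cells (4.30 to 5.17%) and 3.62% of filtered chase cells (3.24 to 4.04%), a chase to pulse ratio of 0.768 (0.662 to 0.891), though the sort gate and the limits can set these shares. Of the cells in the 4 blood classes described below, they were 32.1% (29.6 to 34.6%) and 24.2% (21.9 to 26.7%). They held 4539439 and 3173542 UMIs, with a median of 8615 UMIs and 1814 genes per pulse cell and 9655 UMIs and 1948 genes per chase cell. Their mitochondrial share was low, with medians of 0.898% and 1.19%. The libraries shared 52 barcodes, and 0 of these were neutrophil barcodes in both. Gm42418, a locus that overlaps ribosomal RNA, was at 8492 UMIs per 1000000 in pulse and 31475 in chase neutrophils, and at 14229 and 36802 in all other filtered cells.

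Levels are given in CPM, the UMIs of a gene summed over a class's cells in a library per 1000000 UMIs of those cells. For comparison, 4 other classes were set by limits on the same kinds of sums: primary-granule progenitors (Elane, Mpo, Prtn3 and Ctsg at or above 20 per 10000; 201 pulse and 509 chase cells), monocytes (F13a1 and Ly6c2; 229 and 287), B-lineage cells (Cd79a and Cd79b; 508 and 161) and CAR cells (Cxcl12; 4615 and 4285). Monocytes, B-lineage cells and CAR cells also had to stay under the 50 per 10000 limit on summed Ngp, Camp and Ltf. The rule itself sets the high Ngp, Camp and Ltf and the low Elane, Mpo, Prtn3, Ctsg, Cxcl12 and Bglap of the members, so these are a description.

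Among the genes that chose the cells, Ngp was at 43799 CPM in pulse and 46219 in chase neutrophils, Camp at 39106 and 44644, and Ltf at 8105 and 9361. Every member held Ngp UMIs, while the spread between cells was wide. Camp ran from 0 to 895 UMIs per 10000 in pulse cells, with a median of 376, and from 0 to 799.7 in chase cells, with a median of 429. In CAR cells the 3 genes were at 51.5, 39.1 and 13.6 CPM in pulse and 39.6, 42.0 and 10.3 in chase. Progenitors, which had no limit on these 3 genes, held Camp at 6757 and 3608 CPM when summed over the class. Per pulse progenitor, the sum of the 3 genes had a median of 0.777 per 10000 and ran up to 1297. The progenitor levels given here and below are sums over such unlike cells.

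The label's other markers, which the rule did not use, were also high. Cd177, a surface protein of secondary granules, was at 891 CPM in pulse and 1029 in chase neutrophils, against 41.0 and 31.6 in progenitors and 3.28 and 2.61 in CAR cells. Ly6g, the surface marker that defines mouse neutrophils, was at 667 and 499, against 6.12 and 2.07 in progenitors and 0.643 and 0.941 in B-lineage cells. After each cell was thinned to 2000 UMIs, 80.3% of pulse and 85.7% of chase neutrophils held a Cd177 UMI, against 0.453% and 0.325% of CAR cells. For Ly6g the shares were 66.7% (62.1 to 71.2%) and 51.5% (45.7 to 57.3%), against 0.544% and 0.225% of CAR cells. Without thinning they were 91.4% and 81.0% of neutrophils. Monocytes held Cd177 at 63.3 and 51.5 CPM and Ly6g at 15.0 and 2.52. After thinning, 10.3% and 10.9% of monocytes held a Cd177 UMI. Both markers were higher in the neutrophils than in each of the 4 other classes. Monocytes, B-lineage cells and CAR cells were kept under the secondary granule limit, so that choice can set low levels there. Progenitors had no such limit. The comparison is a description and does not test the label.

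Other products of neutrophil granules and cytoplasm were also abundant. Lcn2, which binds bacterial siderophores, was at 14817 CPM in pulse and 13958 in chase neutrophils, and at 569 and 385 in progenitors. The alarmin subunits S100a8 and S100a9 together reached a median of 3389 per 10000 UMIs in pulse cells and 3308 in chase cells. Cebpe, the factor of the secondary granule stage, was at 462 (442 to 482) and 501 (477 to 526) CPM, against 183 and 120 in progenitors and 9.99 and 8.28 in monocytes. The primary granule genes were low by rule: Prtn3 was at 42.5 and 98.0 CPM in neutrophils, against 5335 and 6119 in progenitors.

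**Figure D1:**
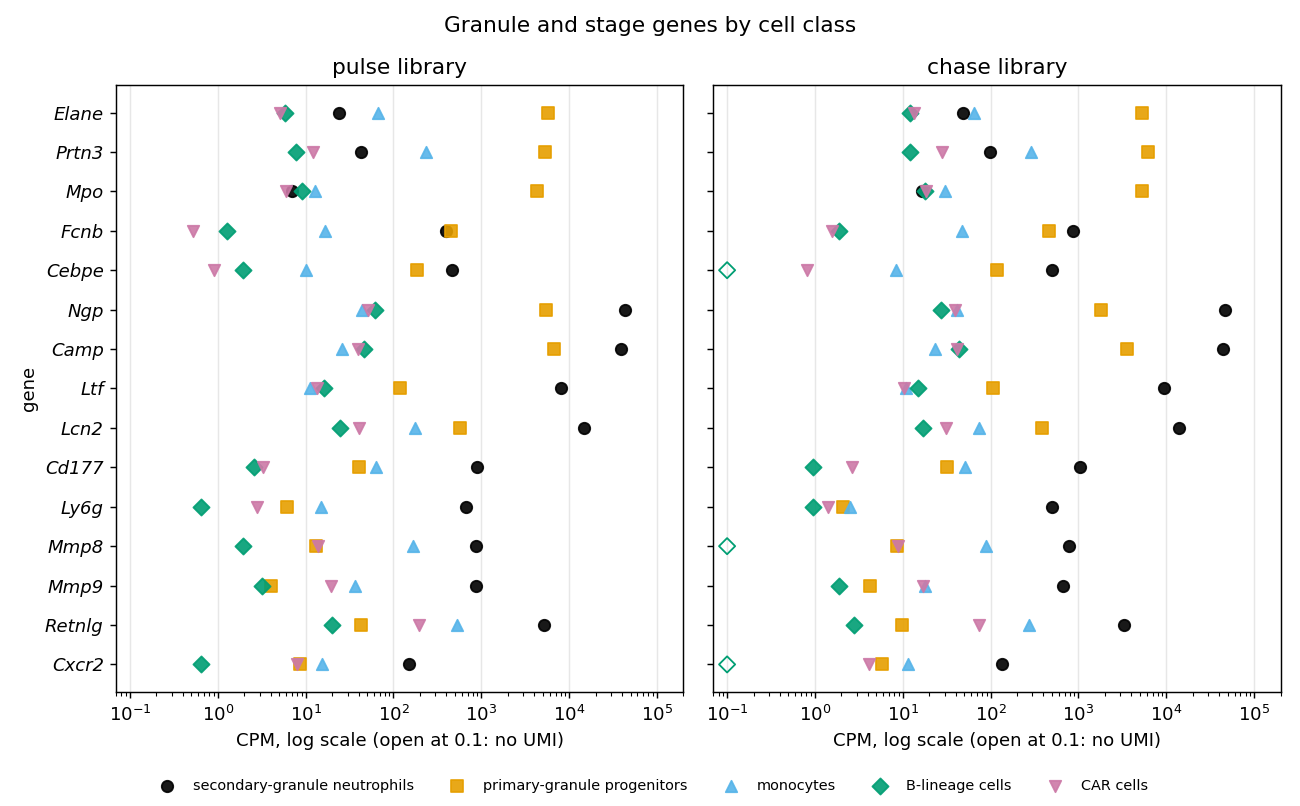
CPM (log axis) of 15 granule and stage genes in the neutrophils and 4 other cell classes of the pulse (left) and chase (right) library, each point being 1 class of 1 library and an open point at 0.1 a class with no UMI. Ngp, Camp, Ltf, Lcn2, Cd177, Ly6g, Mmp8, Mmp9, Retnlg and Cxcr2 were highest in the neutrophils in both libraries, and Elane, Prtn3 and Mpo in the progenitors.

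The neutrophils were not uniform. They fell into cells rich in cell-cycle transcripts and cells nearly without them, and this division went with the granule stage. The summed UMIs of 46 cell-cycle genes (a list of 50 without the widely expressed H2afz, Tuba1b, Tubb5 and Stmn1) were under 10 per 10000 in 277 pulse and 149 chase cells and at least 30 in 140 and 138. A limit of 20 per 10000, set after the values were seen, had 18 and 11 cells in the 10 units below it and 8 and 8 in the 10 above. Cells at or above it are called cycle-high here, which describes their transcripts, not a measured division. Cycle-high cells numbered 148 of 443 in pulse (33.4%, 29.0 to 38.0%) and 146 of 306 in chase (47.7%, 42.0 to 53.5%). Cycle-high cells were also deeper, with medians of 13789 and 13403 UMIs, against 7029 and 7240 in cycle-low cells.

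After thinning to 2000 UMIs, 36.5% of pulse and 49.8% of chase neutrophils held at least 3 UMIs of the 46 genes, a chase to pulse ratio of 1.37 (1.09 to 1.72). The list of 46 genes was chosen after seeing the data. With all 50 genes, the measure planned at first, the shares were 60.1% and 67.8%, and the ratio was 1.13 (0.935 to 1.36). The background measured alike with the 46 genes was 4.44% and 3.25% in CAR cells, while progenitors reached 98.5% and 98.0%. Monocytes, at 37.9% and 53.5%, and B-lineage cells, at 30.9% and 45.6%, were also higher in chase.

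Late-stage genes were concentrated in cycle-low cells. Of all genes with at least 100 UMIs over the 2 sets, 17.2% of 3930 in pulse and 22.5% of 2848 in chase were more than 1.5-fold higher in cycle-low cells. Of the genes listed for mature neutrophils, 21 of 23 described in pulse and 16 of 18 in chase were. For tertiary granules the counts were 10 of 12 and 10 of 11, and for receptors of retention and release 15 of 22 and 15 of 20. Retnlg, a resistin-like secreted protein, was at 9371 CPM in cycle-low and 905 in cycle-high pulse cells, and at 8227 and 260 in chase cells. CAR cells held 196 and 74.3 CPM of Retnlg. Mmp8, the neutrophil collagenase, was at 1626 and 97.9 in pulse and 1959 and 55.3 in chase. Mmp9, the gelatinase, was at 1528 and 206 in pulse and 1594 and 86.1 in chase. Cxcr2, which draws neutrophils out of the marrow, was at 259 and 38.4 in pulse and 297 and 33.8 in chase. Il1b (191 and 20.6 in pulse; 143 and 21.0 in chase) and Fpr1, a receptor for bacterial peptides (92.1 and 10.3; 105 and 5.64), lay on the same side.

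Early genes lay on the other side. Fcnb, a ficolin made early in the secondary granule stage, was at 668 CPM in cycle-high and 126 in cycle-low pulse cells, and at 1237 and 291 in chase cells. Prtn3 was at 80.4 and 5.65 in pulse and 150 and 15.6 in chase, and Ms4a3, a gene of granulocyte-monocyte progenitors, at 145 and 20.4 and at 176 and 17.2. Cebpe was at 608 and 320 in pulse and 591 and 357 in chase. Of 30 oxidative phosphorylation genes, 11 of 30 described in pulse and 15 of 29 in chase were more than 1.5-fold lower in cycle-low cells, against 23.3% and 27.3% of all genes.

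The rule's own genes differed less between the sets. Camp was at 47040 in cycle-high and 31394 in cycle-low pulse cells and at 51032 and 34440 in chase, while Ltf was lower in cycle-high cells, at 6592 against 9576 in pulse and 7739 against 11952 in chase. Ly6g was at 378 in cycle-high and 948 in cycle-low pulse cells and at 222 and 941 in chase. Cxcr4, the receptor that holds neutrophils in the marrow, was at 89.4 and 78.2 in pulse and 90.7 and 65.5 in chase. Markers of other cell types had medians of 22.9 and 31.0 per 10000 in cycle-high and cycle-low pulse cells and 23.4 and 30.7 in chase, and their part in these differences was not tested.

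**Figure D2:**
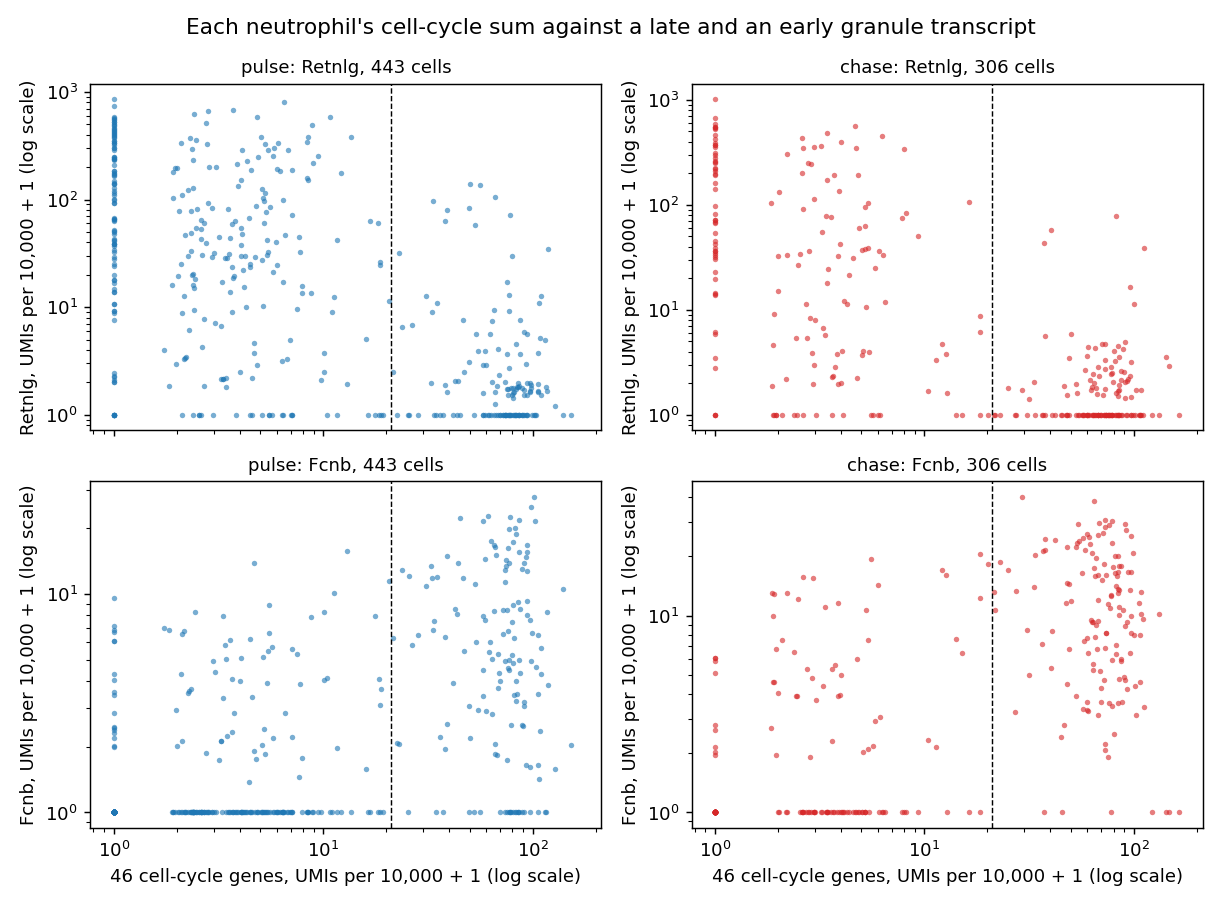
Each point is 1 neutrophil of the pulse (left, 443 cells) or chase (right, 306 cells) library, with the summed UMIs of 46 cell-cycle genes per 10000 plus 1 on the x axis and Retnlg (top) or Fcnb (bottom) per 10000 plus 1 on the y axis, all axes logarithmic; the dashed line is the limit of 20 per 10000. High Retnlg lies mostly left of the line and high Fcnb mostly right of it.

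Fcnb and Retnlg, which took no part in the cell-cycle sum, were more often found apart than together. The pair was picked after its values were seen. After thinning to 2000 UMIs, Fcnb without Retnlg was found in 16.1% of 436 pulse cells (12.7 to 19.8%) and 38.5% of 301 chase cells (33.0 to 44.3%). Retnlg without Fcnb was found in 52.5% (47.7 to 57.3%) and 35.5% (30.1 to 41.2%). Both were found in 10.8% and 10.6%, and neither in 20.6% and 15.3%. With or without the other gene, Fcnb was found in 26.8% and 49.2% and Retnlg in 63.3% and 46.2%. Of the cells with Fcnb, 47 of 117 in pulse and 32 of 148 in chase also held Retnlg. Retnlg was found alike in 3.92% and 1.35% of CAR cells, whose median depths were 8187 and 6767 UMIs. Of the cells with Fcnb only, 56 of 70 in pulse and 98 of 116 in chase were cycle-high, and of those with Retnlg only, 20 of 229 and 4 of 107. These shares describe 1 library each, and the difference between pulse and chase was not tested.

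The cells were also ordered by their summed Ngp, Camp and Ltf share. The rule chose the cells by this same sum, so the order and the differences along it are a description. The median share was 973 per 10000 in pulse and 1013 in chase, from 51.5 to 1820 and from 50.8 to 1636. Cells of both libraries were split at the pooled tertiles, at 860 and 1089 per 10000, which put 167, 140 and 136 pulse cells and 83, 109 and 114 chase cells in the lowest, middle and highest tertile. The cycle-high share was 14.4%, 39.3% and 50.7% in pulse and 19.3%, 54.1% and 62.3% in chase. Cells in the lowest tertile were shallower, with median UMIs of 6296 and 6086, against 10330 and 10926 in the highest.

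Retnlg was at 13227, 1923 and 995 CPM over the pulse tertiles and at 13207, 1415 and 446 over the chase tertiles. Between the highest and the lowest tertile, 18 of 23 mature neutrophil genes in pulse and 14 of 17 in chase were more than 1.5-fold lower in the highest, against 30% and 25.8% of all genes, and 28 of 32 and 26 of 26 cell-cycle genes were higher, against 7.03% and 12.5%. Orm1, an acute-phase glycoprotein, was at 69.2, 201 and 278 CPM in pulse and 98.1, 187 and 296 in chase. Ica1 was at 12.5, 37.1 and 54.3 in pulse and 9.65, 42.4 and 50.7 in chase. Mki67, a proliferation marker, was at 146, 407 and 417 in pulse and 137, 470 and 412 in chase. Several named genes were higher in the lowest tertile. Il1b, a cytokine gene, was at 300 against 15.8 CPM in pulse and 327 against 3.84 in chase, and Stfa1, a stefin, at 122 against 6.31 and 51.5 against 1.54. The class II antigen presentation genes H2-Aa, H2-Ab1 and H2-Eb1 were at 361, 237 and 242 in the lowest and 6.94, 10.7 and 9.47 in the highest pulse tertile, and at 621, 433 and 471 against 29.2, 19.96 and 24.6 in chase. Axl, a receptor kinase for dying cells, was at 92.0 against 3.79 and 62.7 against 2.30, and Lgmn, a lysosomal protease, at 163 against 4.42 and 113 against 5.37. Summed markers of other cell types had medians of 38.0, 26.0 and 22.5 per 10000 over the pulse tertiles and 34.0, 27.8 and 22.8 over the chase tertiles, with single cells of up to 4062 in the lowest pulse tertile, and their part was not tested.

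**Figure D3:**
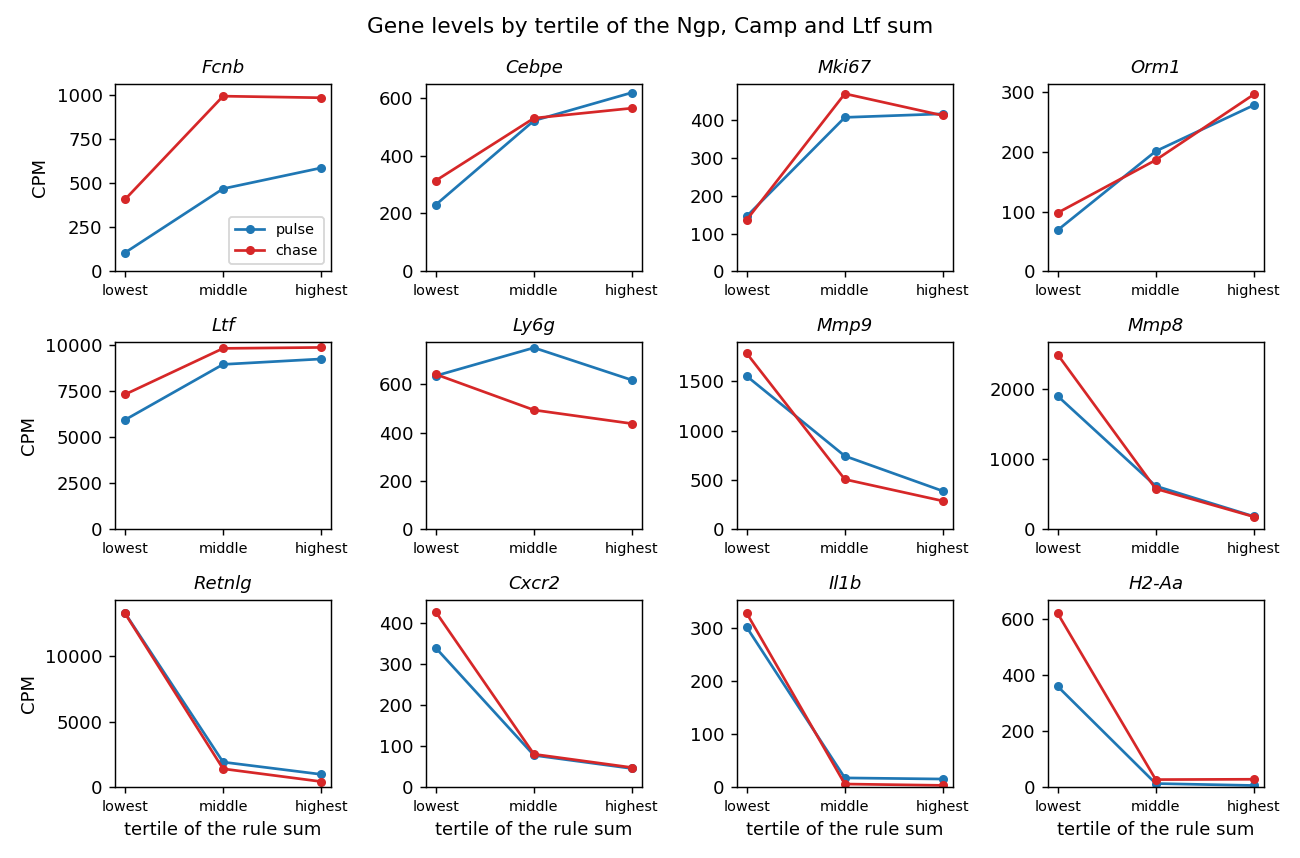
CPM (linear axes from 0) of 12 genes in the lowest, middle and highest tertile of the summed Ngp, Camp and Ltf share, in pulse (blue) and chase (red) neutrophils; each point sums 1 tertile of 1 library. Fcnb, Cebpe, Mki67 and Orm1 were lowest in the lowest tertile in both libraries, while Mmp8, Mmp9, Retnlg, Cxcr2, Il1b and H2-Aa were highest there.

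Between the libraries, 5335 genes had at least 100 UMIs over both sets of neutrophils. Of these, 164 (3.07%) were more than 1.5-fold higher in chase and 397 (7.44%) more than 1.5-fold lower, and the median log2 ratio was -0.087. Leaving out the 10% of cells in each library with most markers of other cell types left 196 lower genes, and thinning every cell to 2000 UMIs left 36 higher and 97 lower. Secondary granule genes differed little: 1 of 25 was more than 1.5-fold higher, 0 were lower, and their median log2 ratio was -0.0077. The level of Ltf was 1.15 times as high in chase (1.14 to 1.17), that of Camp 1.14 times (1.13 to 1.15), that of Ngp 1.06 times (1.05 to 1.06) and that of Lcn2 0.942 times (0.931 to 0.953). Cd177 was at 1.15 times the pulse level (1.10 to 1.21) and Ly6g at 0.748 times (0.703 to 0.795). None of the 8 NADPH oxidase genes, which make the respiratory burst, and none of the 23 receptor genes passed 1.5-fold.

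Among genes of the early stage, Fcnb was at 393 (375 to 412) CPM in pulse and 873 (841 to 906) in chase, 2.22 times as high (2.09 to 2.36). The difference was present within cycle-high cells, at 1.85 times (1.73 to 1.98), and within cycle-low cells, at 2.30 times (1.97 to 2.70). Progenitors held 447 and 458 CPM of Fcnb and monocytes 16.6 and 46.8. Of 8 primary granule genes described, 2 were more than 1.5-fold higher, against 3.07% of all genes, and 0 lower: Prtn3, at 42.5 and 98.0 (2.30 times, 1.92 to 2.77), and Elane, at 23.8 and 48.8 (2.05 times, 1.60 to 2.65). Their level over all other filtered cells was also higher in chase, at 310 and 1015 for Prtn3 and 328 and 860 for Elane. CAR cells held 12.1 and 28.3 CPM of Prtn3, and the part of RNA from other cells was not tested. Mpo, with 32 UMIs in pulse and 52 in chase, and Ctsg, with 13 and 20, had under 100 UMIs in all and were not described. Gfi1, a repressor needed for granulopoiesis, had 47 UMIs in pulse and 63 in chase (1.92 times, 1.29 to 2.86).

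Of 48 cell-cycle genes described, 9 were more than 1.5-fold higher in chase and 0 lower, against 3.07% and 7.44% of all genes, and 39 did not pass 1.5-fold. Their median log2 ratio was 0.26. Tk1, the thymidine kinase of S phase, was at 17.2 and 36.6 CPM (2.13 times, 1.58 to 2.87), Mcm3, a helicase subunit, at 14.8 and 28.0, and Tyms, which makes thymidylate, at 32.6 and 57.0. Top2a was at 314 and 435 (1.38 times) and Mki67 at 327 and 381 (1.16 times). Within cycle-high cells the list median was -0.035, with 2 of 47 genes more than 1.5-fold higher and 1 lower, against 2.5% and 7.41% of 3713 genes. Since 46 of the list's genes chose the cycle-high cells, this value is a description of that choice.

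Of the 12 highest chase ratios taken by the rule for named genes, 9 were histone genes. Of 24 described genes whose symbols start with Hist, 22 were more than 1.5-fold higher in chase and 0 lower, against 3.07% and 7.44% of all genes. Their median log2 ratio was 1.36, and within cycle-high cells the median was 1.07. Hist1h1b, a linker histone, was at 181 CPM in pulse and 437 in chase (2.41 times, 2.21 to 2.64), and Hist1h2ab at 20.5 and 66.8 (3.26 times, 2.54 to 4.21). Nearly all of these UMIs came from cycle-high cells: Hist1h1b was at 363 and 709.6 CPM there and at 3.91 and 2.46 in cycle-low cells. All other filtered cells showed the same direction, at 94.6 and 290 CPM for Hist1h1b and 6.88 and 22.2 for Hist1h2ab. Gm42418 and Lars2 were also higher in chase: Lars2, a mitochondrial leucyl-tRNA synthetase gene, was at 223 and 859 CPM in neutrophils and at 319 and 699 in all other filtered cells. The part of this difference between libraries in the histone ratios was not tested. Histone genes are near-identical within a family, so reads may be split among them. Rgs5, a gene of pericytes, had 1 UMI in pulse and 281 in chase, and 279 of these came from 1 chase cell.

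Of 24 mature neutrophil genes described, 10 were more than 1.5-fold lower in chase and 0 higher, against 7.44% and 3.07% of all genes, and 14 did not pass 1.5-fold. Their median log2 ratio was -0.34. The part of cells that the secondary granule limit left out was not tested. Retnlg was at 5198 (5131 to 5264) CPM in pulse and 3327 (3264 to 3391) in chase, 0.64 times as high. Ccl6, a chemokine, was at 97.4 and 36.9 (0.379 times, 0.306 to 0.465), Asprv1, a protease, at 39.2 and 11.97 (0.305 times, 0.209 to 0.435), and Clec4d and Clec4e, lectin receptors for mycobacterial glycolipid, at 48.7 and 20.8 and at 175 and 103. Trem1, which amplifies inflammatory signals, was at 213 and 127, and Srgn, a granule proteoglycan core, at 462 and 276. The stefin genes Stfa1 and Cstdc4, near-identical members of 1 family, were each carried by few cells: Stfa1 had 233 UMIs in 23 pulse cells and 56 in 5 chase cells, and Cstdc4 270 in 20 and 49 in 4.

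Within cycle-low cells alone these differences were smaller. There, 4 of 23 mature neutrophil genes were more than 1.5-fold lower in chase, with a median of -0.14, and 0 were higher, against 6.95% and 1.44% of 2991 genes. Mmp8 was at 1626 and 1959 CPM (1.20 times, 1.14 to 1.27), Mmp9 at 1528 and 1594 (1.04 times, 0.986 to 1.10), Cxcr2 at 259 and 297 (1.15 times, 1.01 to 1.31) and Ly6g at 948 and 941 (0.993 times, 0.924 to 1.07). Over all members Mmp9 had been 0.761 times (0.721 to 0.802) and Cxcr2 0.901 times (0.797 to 1.02) the pulse level. Ccl6 stayed lower in cycle-low cells, at 165 and 72.0 (0.436 times, 0.342 to 0.551).

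**Figure D4:**
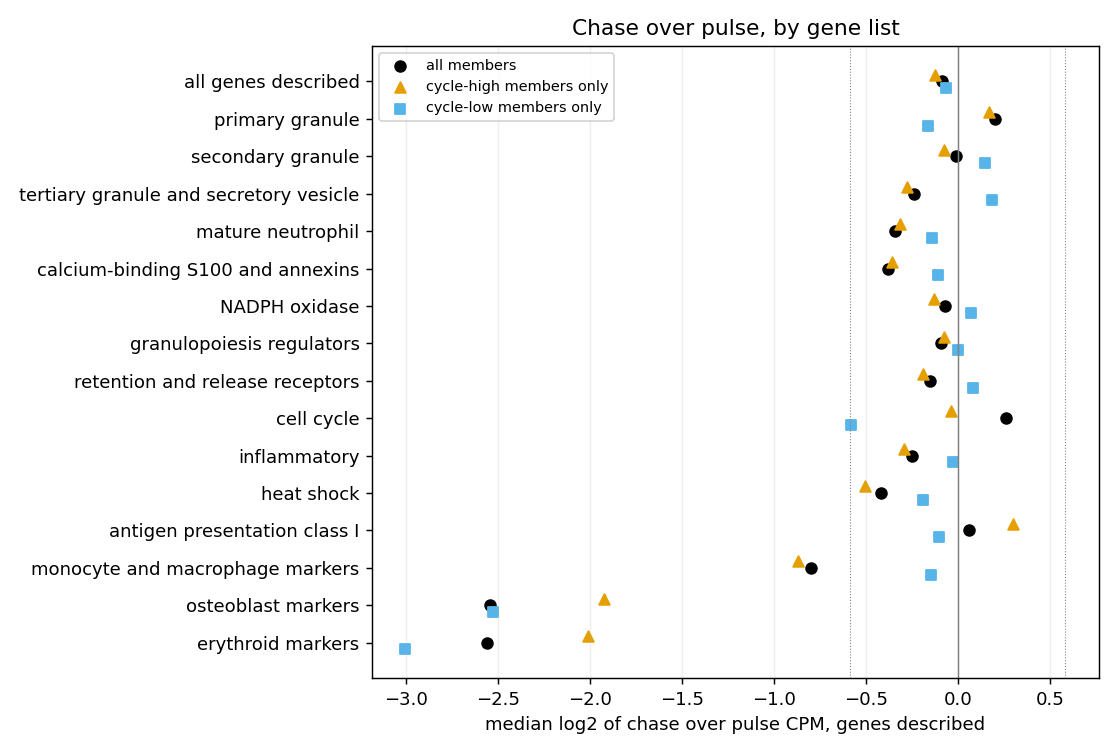
Median log2 of chase over pulse CPM for all genes described and 15 gene lists, in all neutrophils (black circles), cycle-high cells (orange triangles) and cycle-low cells (blue squares); dotted lines mark 1.5-fold each way and each point rests on 1 library per group. The cell-cycle list lies at 0.26 in all cells and at -0.035 in cycle-high cells, and the mature neutrophil list at -0.34 in all cells and -0.14 in cycle-low cells.

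Thbs1, which encodes the secreted matrix protein thrombospondin 1, differed in both sets of cells. It was at 1028 (998 to 1058) CPM in pulse and 361 (341 to 383) in chase neutrophils, 0.352 times as high (0.329 to 0.375). In cycle-high cells it was at 494 and 39.5 (0.0799 times, 0.0626 to 0.101), and in cycle-low cells at 1547 and 876 (0.566 times, 0.528 to 0.607). After thinning, 67.0% of pulse (62.3 to 71.4%) and 29.6% of chase neutrophils (24.5 to 35.1%) held a Thbs1 UMI, against 32.0% and 25.3% of CAR cells. Without thinning the neutrophil shares were 83.1% and 37.3%. Monocytes were at 1424 and 218 CPM and progenitors at 84.3 and 10.5, whereas CAR cells were at 245 and 172. The direction was the same in these 3 classes.

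Other genes higher in pulse neutrophils were Plk3, a stress-responsive kinase, at 57.5 and 27.7 CPM, Fxyd5, a regulator of the sodium pump, at 293 and 159, Ets2, a transcription factor, at 152 and 86.3, Grina at 309 and 187, and Krt83, a keratin, at 79.3 and 45.1. Cycle-high and cycle-low cells kept the direction for each of these 5 genes. Per1, a clock gene that glucocorticoids induce, was at 44.9 and 22.7 CPM (0.505 times, 0.380 to 0.664), while Nfil3 was at 28.9 and 31.5. Of 3 clock genes described 1 was more than 1.5-fold lower and 0 higher, against 7.44% and 3.07% of all genes. Dusp1, an early response phosphatase, was at 179.8 and 110 (0.614 times, 0.540 to 0.696).

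Of 11 class I antigen presentation genes described, 2 were more than 1.5-fold higher in chase and 0 lower. Of all genes, 3.07% were higher and 7.44% lower, which also bears on the interferon, inflammatory and heat shock counts that follow. H2-Q7 was at 32.4 and 93.3 CPM (2.88 times, 2.36 to 3.53), though the H2-Q genes are near-identical and their reads may be split, and Tap1, a peptide transporter subunit, at 25.1 and 46.3 (1.84 times, 1.43 to 2.38). B2m was at 812 and 1024. Interferon genes went both ways, with Irf1 at 20.9 and 32.1 and Bst2 at 44.9 and 22.1, and 2 of 15 were higher and 2 lower. Of 15 inflammatory genes, 1 was higher and 4 lower. Cxcl10 was the higher one, with 20 UMIs in pulse and 87 in chase, 36 of them in 1 cell, and Il1b was at 107 and 68.1 (0.636 times, 0.539 to 0.748), while in cycle-high cells it was at 20.6 and 21.0. Of 8 heat shock genes, 3 were lower and 0 higher, with Hspe1 at 41.4 and 13.2, 37 of its 188 pulse UMIs being in 1 cell.

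Tertiary granule and secretory vesicle genes had a median log2 ratio of -0.24, with 2 of 15 more than 1.5-fold lower and 0 higher, against 7.44% and 3.07% of all genes, and in cycle-low cells the median was 0.19. The 2 genes were Alpl, at 32.6 and 9.45 CPM, with 43 of its 148 pulse UMIs in 1 cell and 177 and 156 CPM in other cells, and Adam8, a membrane protease, at 177 and 107 (0.605 times, 0.531 to 0.687). The same shares of all genes apply to the counts that follow. Of 10 S100 and annexin genes, 3 were lower and 0 higher. S100a6, a calcium-binding protein, was at 2177 and 1362 (0.625 times, 0.603 to 0.648). Of 23 regulators of granulopoiesis, Gfi1 was higher and Irf8, a factor of the monocyte branch, lower, with 89 UMIs in pulse and 31 in chase. Cebpb, the factor of emergency granulopoiesis, was at 498 and 348 (0.698 times, 0.649 to 0.751). Csf3r, the receptor for G-CSF, was at 95.4 and 75.6 (0.793 times, 0.674 to 0.930), and Cxcr4 at 83.7 and 81.0 (0.967 times, 0.823 to 1.14). Of 20 immediate early genes, 2 were lower, near the 7.44% of all genes, and 0 higher, and of 14 glucocorticoid-responsive genes 4 were lower and 1 higher. Of 20 glycolysis and hypoxia genes, 1 was lower and 0 higher, and 0 of 30 oxidative phosphorylation genes passed 1.5-fold. Of 11 genes of extracellular traps and cell death, Bax, which promotes apoptosis, lay at the limit, at 32.2 and 21.4 CPM (0.666 times). It was past 1.5-fold as a plain ratio and not with the prior count of 0.5 used for all counts of genes, and the other 10 were not past it.

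Transcripts of other cell types were found in the neutrophils and differed between the libraries. All 9 osteoblast markers described were more than 1.5-fold lower in chase, with a median log2 ratio of -2.54. Of all genes, 7.44% were lower and 3.07% higher, which also bears on the erythroid and the monocyte and macrophage counts below. For the osteoblast list, 5 cells held 82.0% of the pulse UMIs, against 29.3% of those in chase. Col1a1, the main collagen of bone, had 7483 UMIs in pulse, of which 1 cell held 2502. Of 4 erythroid markers described all were lower, and 5 cells held 93.9% of the list's pulse UMIs. Per cell the medians were low, at 7.57 and 6.25 UMIs per 10000 for the osteoblast list, 8.88 and 8.37 for 17 monocyte and macrophage markers, 22.4 and 21.4 for 20 CAR markers and 0 and 0.812 for 9 erythroid markers. Endothelial, T and NK cell, and basophil, mast cell and eosinophil lists had a median of 0 in both libraries, B and plasma cell markers 0 and 1.42, and osteoclast markers, a list that includes Mmp9, 8.70 and 3.39. Cpa3, Fcer1a and Epx of the basophil, mast cell and eosinophil list were at 0 in both libraries, as were Cd8a and Foxp3 of the T cell list. Of 12 monocyte and macrophage markers described, 7 were lower in chase and 0 higher, with C1qa at 125 and 58.0 CPM. Igha, an antibody heavy chain of plasma cells, was at 5.73 in pulse and 50.4 in chase neutrophils and at 7.73 and 261 in CAR cells.

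The reporter that the sort selected was low in the neutrophils. tdTomato was at 149 (138 to 161) CPM in pulse and 107 (96.3 to 119) in chase neutrophils, 7.23% and 5.49% of the level in CAR cells. Adipoq was at 1.90% and 2.02% of the CAR level, so the neutrophils held 4.64 and 2.97 tdTomato UMIs per Adipoq UMI, against 1.22 and 1.09 in CAR cells. The other blood classes held more, at 5.66 and 5.60 in progenitors, 11.9 and 8.16 in monocytes and 34.8 and 13.4 in B-lineage cells. After thinning, 23.4% of pulse (19.5 to 27.7%) and 14.6% of chase neutrophils (10.8 to 19.1%) held a tdTomato UMI, against 87.8% and 90.2% of CAR cells. Without thinning the shares were 61.4% and 54.2%, and 96.1% and 96.0% in CAR cells. Progenitors, at 4.39% and 4.28% of the CAR level, and monocytes, at 10.9% and 7.51%, lay near the neutrophils, and pulse B-lineage cells lay apart at 44.4%. Leaving out the 10% of neutrophils with most markers of other cell types gave 118 and 79.0 CPM of tdTomato. The part of free RNA and of other cells in the same droplet was not tested.

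**Figure D5:**
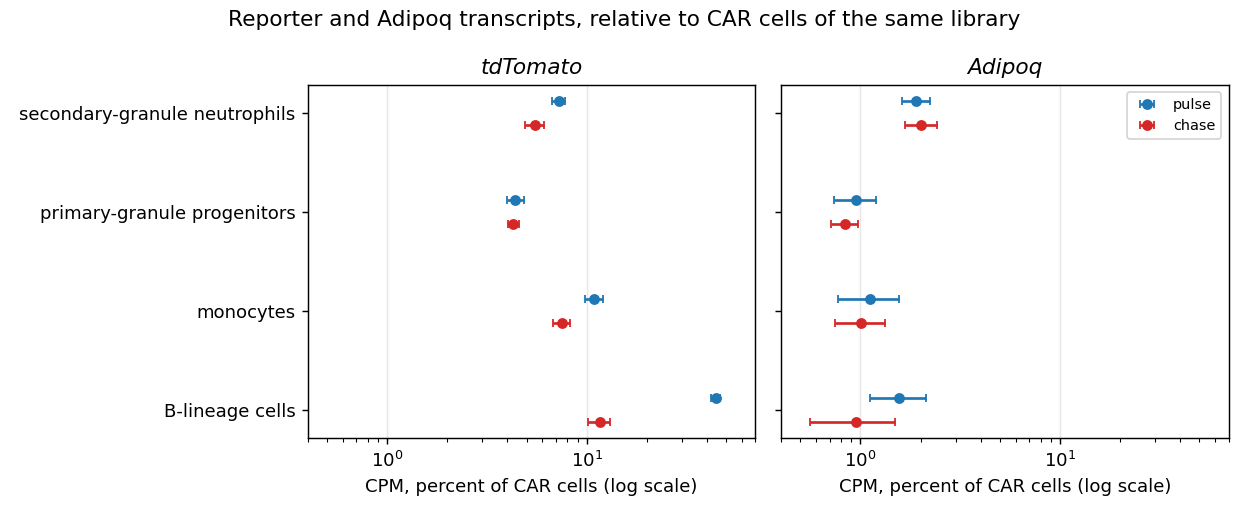
tdTomato (left) and Adipoq (right) CPM as a percentage of the level in CAR cells of the same library (log axis), in 4 blood cell classes of the pulse (blue) and chase (red) library, with exact 95% intervals for counting error in the class. Neutrophils lay at 7.23% and 5.49% for tdTomato and at 1.90% and 2.02% for Adipoq.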

How the data were processed

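The labels name a 10x 3 prime kit, version 3.1, for both libraries. The authors deposited raw UMI counts per gene and barcode, not normalized; Cell Ranger 6.0.2 is named per the file headers, and 2.1.1 per the submitters' processing notes, which also give mm10. The annotation release and strand setting are not given in the sources used here, so overlapping genes may share reads. The members and gene lists were chosen with earlier results of these data known. Counts were summed per class and scaled to CPM. Log2 ratios used a prior count of 0.5, and a gene was described from 100 UMIs. Intervals are Clopper-Pearson, Poisson or exact conditional ones. Doublets were kept; Scrublet, as in scanpy 1.11.5, marked 2 pulse and 4 chase members. With 1 library per group no test was run. The text names the 12 highest and 12 lowest ratios (at least 50 CPM, above the other cells, no marker of another type), 10 each way for tertiles and cycle sets, up to 3 per list, the markers, and some genes chosen after their values were seen (Fcnb with Retnlg, Ms4a3, Gm42418, Thbs1 by class). Alternatives included edgeR 4.0.16 TMM factors, used for scaling only. List genes without a match by symbol numbered 2.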

Additional observations from a re-analysis of the deposited data

Results flagged for a closer look

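Cells over both the secondary granule limit and the Cxcl12 limit were left out of the neutrophils by the rule and belong to no class. They numbered 198 of the 694 filtered pulse cells over the secondary granule limit (28.5%, 25.2 to 32.0%) and 196 of 579 in chase (33.9%, 30.002 to 37.9%). Their median depth was 15648 UMIs in pulse and 4292 in chase, and their median Cxcl12 was 106 and 78.9 per 10000, against 197 and 246 in CAR cells. They held tdTomato at 1171 CPM in pulse and 871 in chase, Adipoq at 934 and 755, and Lcn2 at 6599 and 7553. Scrublet marked 7 and 0 of them as doublets. Barcodes that failed a filter on genes, UMIs or mitochondrial share but were over the secondary granule limit numbered 26 in pulse and 45 in chase. No control library was available for either count, so the number to be awaited is not known and neither count was tested.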

How the results depend on the processing

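The chase to pulse ratio of the neutrophil share moved by less than its interval under every alternative limit, filter and doublet setting run. Genes more than 1.5-fold higher in chase numbered 274 with each cell weighted equally, 2109 with genes of at least 1 UMI, 48 at 2-fold, 36 after thinning to 2000 UMIs, 93 in cycle-high and 43 in cycle-low cells. Lower genes numbered 196 without the 10% of cells with most markers of other types, 4085 with genes of at least 1 UMI, 138 at 2-fold, 97 after thinning and 208 in cycle-low cells. The secondary granule median was 0.094 with TMM factors and 0.15 in cycle-low cells; tertiary granules were at 0.19 and mature genes at -0.14 in cycle-low cells. The cell-cycle median was -0.035 in cycle-high and -0.58 in cycle-low cells, and the cycling share ratio was 1.37 with 46 genes and 1.43 unthinned. Between tertiles, the mature median in pulse was -2.02 without that 10% of cells, -1.99 with equal weights and -1.25 scaled outside granule genes; in chase it was -2.01 with a limit of 25, -1.88, -1.19 and, thinned, -1.17. The cell-cycle median was 1.77, 1.43 and 1.45 (equal weights, outside granule genes, thinned) in pulse and 1.88 thinned in chase. tdTomato was at 118, 171 and 265 CPM in pulse (without the 10%, equal weights, outside granule genes) and 79.0 and 198 in chase (without the 10%, outside granule genes). Log2 ratios changed sign in cycle-low cells for Hist1h2ab (-0.67, 1 and 0 UMIs), Hist1h3c (-2.26, 4 and 0) and Hist1h1b (-0.53, 9 and 3), and in cycle-high cells for Il1b (0.033, 46 and 41). For Cstdc4 in cycle-high cells the value was 0.20 with no UMI in either library, which the prior count and the library sizes set, so it says nothing of a direction. Of 600 values of single genes, 443 moved by less than their interval, 152 moved by more and 5 had the other sign, Cstdc4 included. The cause was not tested. The cycle sets, the shorter cell-cycle list and leaving out the top cell were chosen after seeing the data. No paired analysis was possible because each group has 1 library, and leaving out a library was not possible for the same reason.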
